A study of Mus musculus with 11 samples.

Results

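Chromatin immunoprecipitation with an antibody to MacroH2A2 was compared between mouse embryonic stem (ES) cells and mouse embryonic fibroblasts (MEFs). These are 2 of the 11 sequencing libraries of the series, chosen by antibody and cell type. Per the labels, the ES library came from untreated parental KH2 ES cells and the MEF library from untreated wild type MEFs, both of strain 129 X C57bl/6 and both precipitated with antibody ab4173. Each library combined 2 replicates, which cannot be separated, so that every ratio below compares 2 libraries with no replicate check. KH2 cells carry a Dox-responsive transactivator at ROSA26 and a recombination site downstream of Col1a1. According to the methods the ES cells were cultured on feeder MEFs, which were depleted before collection, so that some feeder chromatin may be in the ES library. The methods describe MEFs only from chimeric embryos made with tagged ES cells. Sources differ on whether these cells carried a transgene or received Dox, and only antibody and cell type were used.

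MacroH2A2, the product of H2afy2, is a histone H2A variant with a large globular macro domain attached to its C-terminal tail. MacroH2A variants replace conventional H2A in nucleosomes. They are best known from the inactive X chromosome and from transcriptionally silent autosomal chromatin, and their removal makes somatic nuclei easier to reprogram. ES cells hold less MacroH2A protein than differentiated cells, but a library scaled to its own total measures where the variant is, not how much of it a cell has.

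The ES library held 8545703 mapped intervals and the MEF library 14899508. Intervals whose midpoint lay on chromosomes 1 to 19 were counted, and the MEF library was thinned at random to the ES total of 8322155. Each value is therefore a number of reads out of this total. All ratios are log2 MEF over ES, so that positive values are higher in MEFs, and 1.5-fold is 0.585 on this scale. Intervals in brackets are exact 95% Clopper-Pearson intervals for counting error only. Beside them stands the same ratio in the anti-HA libraries of HA-Macro ES cells and HA-Macro MEFs after 12 h of Dox, which are other libraries, of 150 bp rather than 400 bp intervals. The level of a 100 kb tile followed its GC content, with Pearson r of 0.83 in the ES library and 0.56 in the MEF library over 23593 tiles. In the anti-HA library of HA-Macro ES cells without Dox, where no tagged histone was induced, r was 0.39. The part of base composition in the ratios was not tested.

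One stretch of chromosome 3, from 57100001 to 71400000 on mm9 (14.3 Mb), stood apart in the ES library. Its median tile held 153 reads there, against 296 on the rest of chromosome 3, a ratio of 0.517. The ratio was 1.02 in the MEF library and between 0.977 and 1.03 in the other 9 libraries. MEF over ES was 1.11 in the 64 tiles of the stretch that hold no TSS and 0.98 in the 79 that hold 1 or more. It was 0.35 in the 2 Mb before the stretch and 0.11 in the 2 Mb after it. Summed over the bodies of 73 protein-coding genes in the stretch it was 0.96 [0.92, 1.00], against 0.08 in HA-Macro. No input library was used here, so that less MacroH2A2 and less DNA of this stretch in the ES cells cannot be told apart. Results that rest on it are given with and without it, except where stated.

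**Figure D1:**
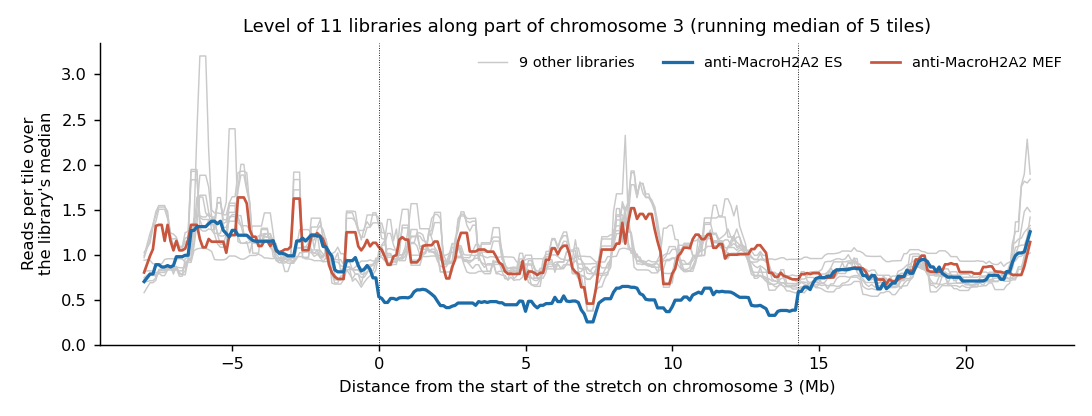
Reads per 100 kb tile over each library's own median (y axis, running median of 5 tiles) against distance in Mb from the start of the chromosome 3 stretch (x axis), with dotted lines at both ends. The ES anti-MacroH2A2 library (blue) runs near 0.5 between the lines, while the MEF anti-MacroH2A2 library (red) and the 9 other libraries (gray) stay near 1.

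Promoters showed the clearest difference between the cell types. Within 600 bp of the TSS, 20797 protein-coding genes held 200163 ES reads and 120552 MEF reads, a ratio of -0.73 [-0.74, -0.72]. From 4 to 2 kb upstream of the same genes the counts were 167580 and 153433, a ratio of -0.13 [-0.14, -0.12]. The difference was thus larger at the promoter than upstream of it, where MEFs were also lower. In HA-Macro at 12 h the ratios of the same sums were -0.23 at the promoter and -0.13 upstream. The median over all promoters with at least 20 reads, -0.83 here, was 0.29 in HA-Macro, in the opposite direction. With at least 50 reads it was -0.35 here. Of the 6071 protein-coding promoters with at least 20 reads over both libraries, 66.7% were at least 1.5-fold higher in ES cells and 2.83% at least 1.5-fold higher in MEFs. Those percentages and that median depend on the minimum, which admits promoters that are high in either library, and the sums do not. With 1 read or more in each library the median was -0.59, so that it did not move in 1 direction with the minimum.

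The size of the promoter difference followed CpG content, measured as observed over expected CpG within 500 bp of the TSS. In mammals, promoters rich in CpG are mostly those of broadly expressed and developmental genes, and promoters poor in CpG those of tissue-restricted genes. Among 4552 promoters of the poorest class, with a ratio to 0.2, the counts were 21478 in ES cells and 19190 in MEFs (-0.16). Through the classes ending at 0.4, 0.6 and 0.8 the ratio was -0.29, -0.61 and -0.94. In 4410 promoters above 0.8 it was -1.09, with 60605 reads in ES cells and 28429 in MEFs. The region 4 to 2 kb upstream lay between -0.09 and -0.17 in all 5 classes. HA-Macro at 12 h had -0.13, 0.07, 0.01, -0.35 and -0.63 over the same classes, so that it was lowest in the 2 classes richest in CpG and near or above 0 in the middle classes. Upstream it had -0.16, -0.04, -0.06, -0.17 and -0.20.

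Relative to their own upstream flanks, which removes library scaling, promoters above 0.8 were 2.87-fold richer in MacroH2A2 reads in ES cells and 1.46-fold in MEFs. The no-Dox anti-HA library of ES cells gave 1.51-fold at the same promoters. The MEF value was just below that of this library, and the ES value above it. Leaky expression of the tagged histone may give the no-Dox library some promoter signal of its own, so that it is not a pure background. No background library of MEFs was analysed here. HA-Macro gave 1.28-fold in ES cells and 0.949-fold in MEFs at 12 h, and 2.42-fold and 1.24-fold after 3 h. In the poorest class the anti-MacroH2A2 values were 1.20-fold in ES cells and 1.13-fold in MEFs, with 1.05-fold in the no-Dox library.

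The profile around the TSS was asymmetric. In 9652 genes with CpG above 0.6, ES reads peaked from 200 to 400 bp downstream of the TSS, with 3147 reads per 1000 genes, and MEF reads peaked in the same bin with 1468. The ratio was deepest just inside the gene, -1.13 in the first 200 bp, and was still -0.38 at 1.8 to 2 kb downstream, whereas at 2 to 1.8 kb upstream it had returned to -0.14. In 8249 genes with CpG to 0.4, the highest bins held 1171 ES reads and 955 MEF reads per 1000 genes, both in the first 200 bp.

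**Figure D2:**
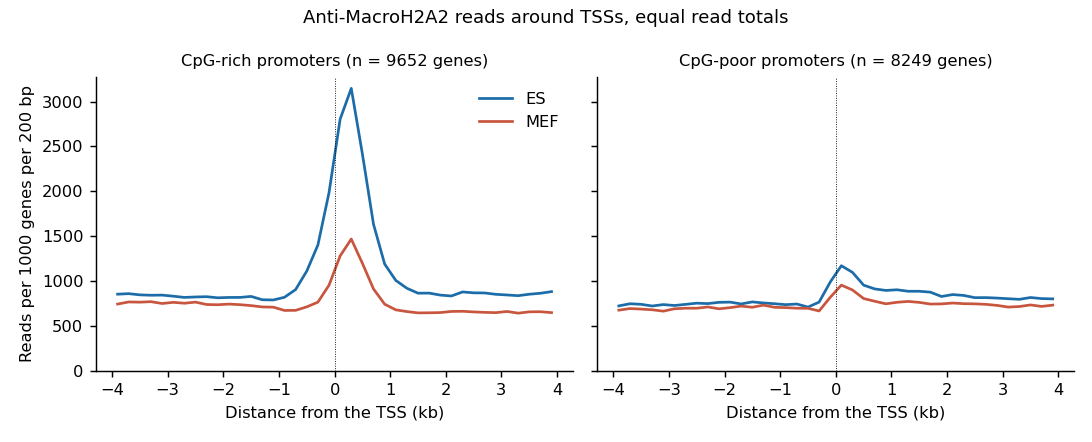
Anti-MacroH2A2 reads per 1000 genes in 200 bp bins (y axis) against distance from the TSS in kb (x axis), at equal read totals, for CpG-rich (above 0.6, left) and CpG-poor (to 0.4, right) protein-coding promoters. The ES line (blue) rises to 3147 at CpG-rich promoters and the MEF line (red) to 1468, while the lines lie close together at CpG-poor promoters.

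The promoters at both ends of the range are shown to make this contrast visible. The 250 bases before the TSS of the 2 lowest protein-coding promoters by ratio among those with at least 20 reads, of the highest (Myf5) and of 1 of the 2 next highest (Nr1h4, tied with Il33), are printed 5′ to 3′ on the strand of the gene, from mm9, with every CpG in capitals. Basp1, which encodes a membrane-attached signaling protein of neurons, lies at chr15:25343520-25343769 and has 30 CpGs. D10Bwg1379e lies at chr10:18463565-18463814 with 18 CpGs. Myf5, a transcription factor of the muscle lineage, lies at chr10:106923191-106923440 with 3 CpGs. Nr1h4, the bile acid receptor, lies at chr10:88996331-88996580 with 7 CpGs. All 4 are on the minus strand.
Basp1: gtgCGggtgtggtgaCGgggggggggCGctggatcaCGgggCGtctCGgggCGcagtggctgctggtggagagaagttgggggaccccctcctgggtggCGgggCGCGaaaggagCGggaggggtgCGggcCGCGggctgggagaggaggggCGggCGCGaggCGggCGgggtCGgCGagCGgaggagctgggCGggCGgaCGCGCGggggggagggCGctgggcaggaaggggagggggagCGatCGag
D10Bwg1379e: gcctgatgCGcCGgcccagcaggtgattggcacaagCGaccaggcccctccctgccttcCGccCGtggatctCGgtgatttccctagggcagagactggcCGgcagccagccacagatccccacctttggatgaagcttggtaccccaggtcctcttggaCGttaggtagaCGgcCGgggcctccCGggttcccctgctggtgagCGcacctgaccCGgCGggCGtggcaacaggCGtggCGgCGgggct
Myf5: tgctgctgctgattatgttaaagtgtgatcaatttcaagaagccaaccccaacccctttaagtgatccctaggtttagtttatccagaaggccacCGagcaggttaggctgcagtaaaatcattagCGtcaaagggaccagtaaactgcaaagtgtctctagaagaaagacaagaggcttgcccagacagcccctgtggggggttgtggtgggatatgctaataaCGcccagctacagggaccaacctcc
Nr1h4: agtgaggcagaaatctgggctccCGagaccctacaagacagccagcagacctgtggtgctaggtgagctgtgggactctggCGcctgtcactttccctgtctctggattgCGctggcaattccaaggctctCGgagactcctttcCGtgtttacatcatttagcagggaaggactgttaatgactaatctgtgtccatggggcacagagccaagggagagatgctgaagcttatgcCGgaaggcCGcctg
Over 21418 protein-coding promoters this window held a median of 9 CpGs, and 92.6% held at least 1. At least 30 CpGs were found in 6.84% of them, as in Basp1, and at least 18 in 26.1%, as in D10Bwg1379e. At least 7 were found in 56.4%, as in Nr1h4, and at least 3 in 75.7%, as in Myf5, so that these last 2 are closer to the middle of the range than Basp1 is.

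Basp1 and D10Bwg1379e each held 24 ES reads and 1 MEF read within 600 bp of the TSS, a ratio of -4.58 [-9.95, -1.97]. Myf5 held 4 ES reads and 18 MEF reads (2.17 [0.57, 4.19]). The counts are low and these promoters were picked as extremes of 1 random thinning, so that their ratios overstate the difference. In the full libraries the ratios were -2.78 for Basp1, -2.37 for D10Bwg1379e, 1.97 for Myf5 and 1.54 for Nr1h4. The other 8 lowest promoters lay between -4.46 and -3.64. They included Aff4, a scaffold of the transcription elongation machinery, with 22 and 1 reads, Stim1, the calcium sensor of the endoplasmic reticulum, with 26 and 2, and Vangl1, a planar polarity protein, with 21 and 1. In the full libraries these 3 were at -2.43, -1.48 and -2.59, and of the 10 lowest only Snx21 was further from 0 there (-5.10). In HA-Macro, Basp1 gave 8 and 1 reads and Aff4 gave 12 and 3, but D10Bwg1379e gave 4 and 8, in the opposite direction. The 10 highest promoters also included Il33, an alarm cytokine, with 4 and 17 reads, and Fgr, a kinase of myeloid cells, with 4 and 16. All 10 were above 0 in HA-Macro, from 0.49 (4931409K22Rik, 5 and 7 reads, and Snhg11, 10 and 14) to 2.12 (Fgr, 3 and 13). These counts are low. The HA-Macro median over promoters with at least 20 HA-Macro reads was 0.29, so that a value above 0 is common among those. Most of the 10 highest promoters held fewer HA-Macro reads than that. Summed over all protein-coding promoters HA-Macro gave -0.23.

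Promoters of other gene types were also lower in MEFs. LincRNA promoters (1205) had a ratio of -0.69, close to that of protein-coding genes, pseudogenes (3940) -0.18, miRNA genes (1438) -0.29 and snoRNA genes (1433) -0.10.

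Gene bodies, from 2 kb past the TSS to the transcript end site (TES), were lower in MEFs to a lesser degree. In 14902 protein-coding bodies of genes of at least 5 kb with 20 or more reads, the median ratio was -0.32, with 26.5% at least 1.5-fold higher in ES cells and 2.17% at least 1.5-fold higher in MEFs. Outside the chromosome 3 stretch the latter share was 1.79%. The ratio depended on gene length. Summed over 2739 genes of 5 to 10 kb it was -0.45 (81664 and 59819 reads). It was -0.44, -0.35, -0.28, -0.18 and -0.05 in the classes ending at 20, 50, 100, 200 and 500 kb, and 0.09 in 188 genes of 500 kb or longer (517128 and 550675 reads). HA-Macro gave -0.24 in the shortest class and 0.10 in the longest. Of the 188 longest genes, 0 were at least 1.5-fold higher in ES cells.

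**Figure D3:**
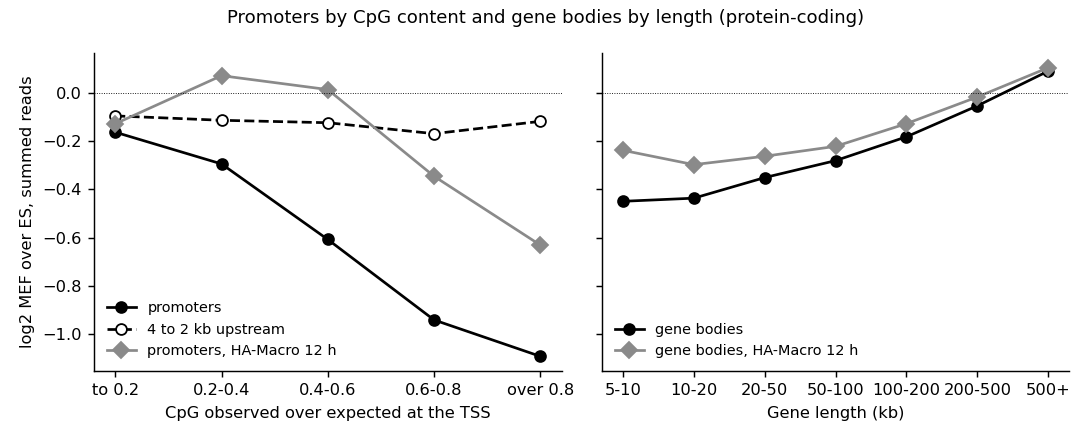
Log2 MEF over ES of summed reads (y axis) for protein-coding promoters by CpG class (left) and gene bodies by gene length (right). Black circles are anti-MacroH2A2, gray diamonds are HA-Macro at 12 h, and open circles are the region 4 to 2 kb upstream. Promoter ratios go from -0.16 to -1.09 with CpG while the upstream region stays between -0.09 and -0.17, and body ratios go from -0.45 to 0.09 with length.

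The ratio was not even along genes. Genes were divided into 10 equal parts from TSS to TES. The first part thus includes the 2 kb past the TSS that the bodies above leave out, and with it the downstream side of the promoter difference. In genes of 20 to 50 kb the ratio was -0.53 in the first part, -0.26 in the next and -0.48 in the last. In HA-Macro these 3 values were -0.26, -0.24 and -0.29, nearly even. In genes of 100 to 200 kb they were -0.24, -0.14 and -0.31 here, and in genes of 200 kb or longer -0.05, 0.00061 and -0.07. Beyond the end of the gene it moved back toward zero. Around 12293 protein-coding TESs with no TSS within 5 kb, ES reads per 1000 genes were 1039 at 600 to 400 bp before the TES, 739 in the first 200 bp after it and 829 at 600 to 800 bp after it. MEF reads were 770, 592 and 680. The ratio was -0.43 before the TES and -0.28 at 600 to 800 bp past it. HA-Macro showed no such step at these positions (-0.28 and -0.28). Within 600 bp of these TESs the summed counts were 65032 and 50133 (-0.38).

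The 10 bodies lowest in MEFs ranged from -1.47 to -1.27, among 8458 protein-coding bodies of at least 20 kb with 100 or more reads. Usp30, a mitochondrial deubiquitinase, held 225 ES and 81 MEF reads (-1.47 [-1.86, -1.10]). Nphp4, a protein of the ciliary transition zone, held 1053 and 437 (-1.27 [-1.43, -1.11]). Pfkl, the liver form of phosphofructokinase, held 226 and 91, and Thra, a thyroid hormone receptor, 243 and 98. Wfs1, Mllt6, Wdr4, Ncs1, Syt11 and Nomo1 completed the list. In HA-Macro all 10 were below 0, from -0.29 (Pfkl) to -0.98 (Thra). The HA-Macro median over all gene bodies was -0.33, so that a value below 0 is usual there, and Pfkl was above that median.

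Of the 10 bodies highest in MEFs, 9 lay in the chromosome 3 stretch, among them Plch1, a phospholipase C (322 and 838 reads, 1.38), P2ry12, a receptor for ADP (68 and 169, 1.31), Veph1 (447 and 1087, 1.28) and Med12l (531 and 1223, 1.20). Their HA-Macro ratios were 0.70, 0.87, 1.06 and 0.56. P2ry12 lies inside the annotated span of Med12l, so that its reads are counted in both. The other 5 in the stretch had lower HA-Macro ratios, 0.35 for Iqcj, 0.21 for 4931440P22Rik, 0.11 for 1110032A04Rik, 0.03 for Rarres1 and -0.41 for Dhx36. The remaining body was Rasgef1b on chromosome 5, with 89 and 199 reads (1.16 [0.79, 1.54]) and 1.06 in HA-Macro. Outside the stretch the next highest bodies were 1700020N01Rik (106 and 214 reads, 1.01), Zfp474 (80 and 159, 0.99) and Fmo1, a flavin monooxygenase (77 and 151, 0.97), with HA-Macro ratios of 0.63, 1.52 and 0.53. Others among the 10 highest there, all named after their values were seen, were Adamts16, a secreted metalloprotease (423 and 820 reads, 0.95 [0.78, 1.13]), the gene 1700112E06Rik of 1036 kb on chromosome 14 (3419 and 6061, 0.83 [0.77, 0.89]) and Rgs5, a regulator of G protein signaling known from pericytes (101 and 178, 0.82 [0.46, 1.18]). For these last 3 the HA-Macro ratios were 1.73, 1.17 and 1.20.

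Away from promoters the difference turned around. In 5 kb windows more than 10 kb from any TSS, those inside genes held 2432701 ES and 2263059 MEF reads (-0.10) and those outside genes 3321099 and 3815534 (0.20). At more than 50 kb from any TSS, windows inside genes held 1021781 and 1023140 reads, whereas windows outside genes held 1970739 and 2333078 (0.24). HA-Macro gave 0.03 and 0.25 for the latter pair. At equal totals the sign of each class depends on the scaling, and the order of the classes does not.

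In 100 kb tiles the number of genes, counted by TSS, ordered the ratio. Tiles without a TSS are called gene-free here, although some of them lie inside genes. Median ES reads were 287 in the 10147 tiles without a TSS, 329 with 1, 363 with 2 to 3, 398 with 4 to 6 and 476 in the 597 with 7 or more. Median MEF reads were 321, 342, 344, 334 and 359. The ES library was thus 1.66-fold higher in the gene-densest than in gene-free tiles and the MEF library 1.12-fold. The median ratios were 0.16, 0.05, -0.12, -0.28 and -0.39, and in HA-Macro 0.09, 0.01, -0.15, -0.29 and -0.33. At least 1.5-fold higher in MEFs were 969 of 23593 tiles (4.11%), and at least 1.5-fold higher in ES cells 930 (3.94%). Without the chromosome 3 stretch the former were 830. Centered by GC decile, the latter were 474 and the median ratio of gene-free tiles was 0.064. Tiles higher in MEFs were 6.23% of gene-free tiles and 0 of the 597 gene-densest, where 25.1% were higher in ES cells.

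**Figure D4:**
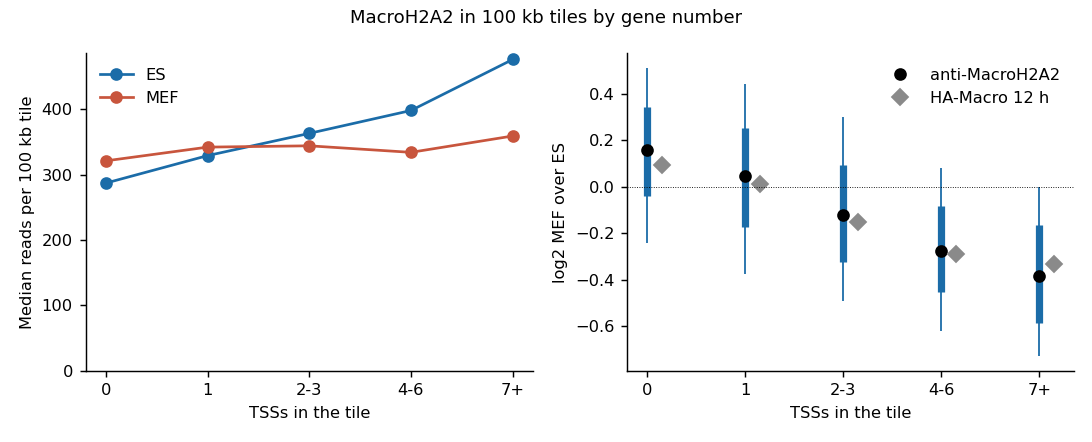
Median anti-MacroH2A2 reads per 100 kb tile in ES cells (blue) and MEFs (red) by number of TSSs in the tile (left), and log2 MEF over ES of the same tiles (right; dot for the median, thick line for the middle 50%, thin line from the 10th to the 90th percentile, gray diamond for the HA-Macro 12 h median). ES medians go from 287 to 476 reads while MEF medians stay between 321 and 359.

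Gene number and GC content each went with the ratio. Tiles were divided into 5 classes of nearly equal size by GC. In gene-free tiles the ratio was 0.19 in the class lowest in GC and -0.09 in the highest. In tiles with 4 or more TSSs it was -0.09 in the lowest class and -0.42 in the highest. In HA-Macro the gene-free tiles had 0.07, 0.16, 0.19, 0.05 and -0.01 from the lowest to the highest class, and the tiles with 4 or more TSSs had -0.37 in the lowest and -0.27 in the highest. The end classes of gene-free tiles thus had the same order there, and those of tiles with 4 or more TSSs the opposite order. Over all tiles HA-Macro had 0.04 in the lowest class and -0.15 in the highest, against 0.17 and -0.25 here. Gene-free tiles whose center was 500 to 1000 kb from a TSS (460) had a ratio of 0.24, against 0.10 in those within 100 kb (3939) and 0.16 in the 11 tiles beyond 1000 kb. HA-Macro did not follow distance, with 0.08, 0.05 and -0.11 in these classes. Over all tiles the ES and MEF libraries correlated with Pearson r of 0.73 and Spearman rho of 0.71, and their ratio correlated with that of HA-Macro with r of 0.71 and rho of 0.73. Tiles are not independent, and base composition may be shared between these libraries, which was not tested. Chromosome medians relative to gene number lay between -0.07 (chromosome 17) and 0.09 (chromosome 3, 0.06 without the stretch).

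Blocks of at least 5 consecutive tiles past 1.5-fold numbered 14 higher in MEFs and 5 higher in ES cells. Of the 5 longest in the first direction, 3 lay in the chromosome 3 stretch, at 58500001 to 68700000, 68900001 to 71400000 and 57100001 to 58200000. The other 11 blocks covered 7.6 Mb, 7 of them without a protein-coding TSS, and all 11 were past 1.5-fold in the same direction in HA-Macro, with a median of 1.19. The longest of these, on chromosome 14 from 23000001 to 24100000, held 3441 ES and 6225 MEF reads (0.86 [0.79, 0.92]) and gave 1.21 in HA-Macro. It covers most of 1700112E06Rik. The next, on chromosome 16 from 85900001 to 86900000, held 2627 and 4374 reads (0.74 [0.67, 0.81]) and contains the TSS of Adamts5, an aggrecanase. A block of 9 tiles on chromosome 1, from 170400001 to 171300000, held 2435 and 3981 reads (0.71) and no TSS. A block on chromosome 16 from 92700001 to 93300000 contained the TSS of Runx1, a transcription factor of blood formation (2415 and 4058 reads, 0.75). These last 2 blocks are not among the 5 longest and were named after their values were seen.

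The 5 blocks higher in ES cells were 5 tiles each, in gene-dense regions with a median of 50 TSSs per Mb, against 2 in the 11 blocks above. On chromosome 7 from 134600001 to 135100000, with Srcap and Rnf40 among its genes, the counts were 2811 and 1635 (-0.78 [-0.87, -0.69]). On chromosome 5 from 134600001 to 135100000, with Gtf2i, Gtf2ird1 and Clip2, they were 2971 and 1742 (-0.77). On chromosome 3 from 88300001 to 88800000, with the nuclear lamina gene Lmna, they were 1934 and 1150 (-0.75). On chromosome 4 from 148300001 to 148800000, with Kif1b and Pgd, they were 2825 and 1745 (-0.70), and on chromosome 8 from 108000001 to 108500000, with the insulator protein gene Ctcf, 2672 and 1641 (-0.70). HA-Macro was below 0 in all 5, from -0.43 to -0.72, and past 1.5-fold in 3.

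Gene lists were read against all protein-coding genes, whose body median was -0.32 and summed promoter ratio -0.73. All 6 housekeeping lists had body medians and promoter sums below 0. Over the 6 lists of ribosomal, mitochondrial ribosomal, respiratory chain, proteasome, translation initiation and splicing genes, promoters summed to 3639 ES and 1765 MEF reads (-1.04, HA-Macro -0.72). Of their 245 bodies past the minimum, 96 (39.2%) were at least 1.5-fold higher in ES cells, beside 26.5% of all bodies, and 3 in MEFs. By gene length the share of all bodies was 41.3% at 5 to 10 kb and 26.6% at 20 to 50 kb, and promoters of the 2 classes richest in CpG had -0.94 and -1.09, and the lists were not compared with genes of their own length and CpG content. Translation initiation factors (Eif) had the lowest body median of all lists with at least 10 bodies, -0.55, with 20 of 44 higher in ES cells. Zinc finger (Zfp) genes had a body median of -0.45 and a promoter ratio of -0.99 (2899 and 1458 reads), with 106 of 296 bodies higher in ES cells.

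Families named for receptors, secreted proteins or structural proteins did not share 1 direction. Olfactory receptor (Olfr) promoters, 1106 in number, held 4745 ES and 4455 MEF reads (-0.09), and vomeronasal receptor (Vmn) promoters 834 and 771 (-0.11), at 8.32 and 4.98 reads per gene over both libraries. In HA-Macro the same promoters gave -0.52 and -0.70, further below 0 than the -0.23 of all protein-coding promoters. The placental prolactin family (Prl) had a promoter ratio of 0.55 from 64 and 94 reads and a body median of 0.38, with 5 of 18 bodies at least 1.5-fold higher in MEFs, against 2.17% of all bodies. Serpin genes, which encode protease inhibitors, had a body median of 0.23, with 9 of 45 higher in MEFs and 3 in ES cells. Vmn and Klr bodies passed 1.5-fold in both directions, more often than all bodies in MEFs but less often than the 26.5% of all bodies in ES cells. Of 100 Vmn bodies 15 were higher in MEFs and 10 in ES cells, and of 24 bodies of the Klr list 4 and 5. Of the Vmn genes, 7 lie in the chromosome 3 stretch, and the Vmn values were not computed without it. Among all genes of 5 to 10 kb, 5.44% of bodies were higher in MEFs and 41.3% in ES cells. Below 0 were Cyp genes, with a promoter ratio of -0.48 and a body median of -0.18, keratins (Krt), with -0.30 and -0.22, major urinary proteins (Mup), with -0.54 [-1.36, 0.25] from 35 and 24 reads, and lipocalins, with -0.45. In HA-Macro, keratins summed to 0.50 over promoters and 0.37 over bodies, and lipocalin promoters to 0.34, in the opposite direction. Cyp and Mup promoters gave -0.215 and -0.69 there. Collagen genes had -0.27 with 0 of 41 higher in MEFs and 13 (31.7%) higher in ES cells, near the 26.5% of all bodies, Hox genes -0.27 with 1 and 4 of 18, and other developmental transcription factors -0.19 with 2 and 13 of 88. HA-Macro summed to 0.31 over the collagen bodies, where anti-MacroH2A2 summed to -0.05, and to 0.37 over the promoters of the developmental transcription factors, where anti-MacroH2A2 gave -0.57. Over the Hox bodies it summed to 0.01, where anti-MacroH2A2 gave -0.28.

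**Figure D5:**
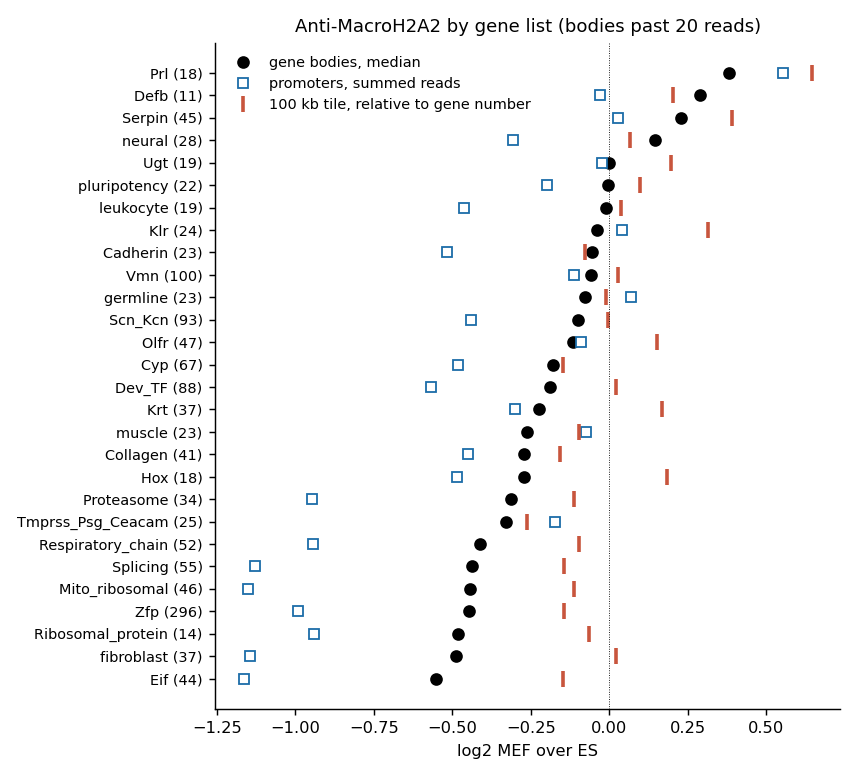
Anti-MacroH2A2 log2 MEF over ES (x axis) by gene list, with the number of bodies past 20 reads in parentheses. Black dots are medians of gene bodies, open squares are summed promoter reads, and red bars are the median of the members' 100 kb tiles relative to tiles of the same gene number. Only lists with at least 10 such bodies are shown. Among these, Prl, Defb and Serpin have the highest bodies and Eif the lowest, and promoters of housekeeping lists lie near -1.

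The tiles around the genes of each list were set against tiles with the same number of genes. The tiles of Prl genes stood 0.65 above the median of their gene number class, those of Serpin genes 0.39, Krtap genes 0.39, Sprr and Lce genes 0.38, interferons 0.36 and clustered histone genes 0.35. The lowest were the Tmprss, Psg and Ceacam list at -0.26 and collagen genes at -0.16, and Zfp and Eif genes stood at -0.15. In HA-Macro the Prl, Serpin, Krtap, Sprr and Lce, and interferon tiles stood at 0.87, 0.60, 0.47, 0.32 and 0.27, but those of clustered histone genes at -0.09 and of collagen genes at 0.09, opposite in sign. Tiles of Olfr genes stood at 0.15 in these libraries and at -0.11 in HA-Macro. Some duplicated regions of receptor families held few reads in the anti-MacroH2A2 libraries, as in the Vmn2r29 to Vmn2r36 cluster, with 65.1 ES reads per 100 kb.

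As single loci, 81 clusters of at least 8 genes of a family were measured. Of these, 0 were at least 1.5-fold higher in MEFs and 3 in ES cells, beside 4.11% and 3.94% of all 100 kb tiles. Clusters are longer than tiles, so that these shares are not of like units. A ratio above 0 was found in 16 clusters. The median over the 81 was -0.17, against 0.03 over all tiles, but 0.02 relative to tiles of the same gene number. The highest was the Prl cluster on chromosome 13 from 27186081 to 28243480, with 2344 ES and 3232 MEF reads (0.46 [0.39, 0.54], HA-Macro 0.65). The Serpina10 to Serpina3n cluster on chromosome 12 followed with 2263 and 2734 (0.27, HA-Macro 0.57). Next came Olfr433 to Olfr220 on chromosome 1 (920 and 1084, 0.24), Serpinb5 to Serpinb8 (1754 and 2009, 0.20), Olfr458 to Olfr47 (1966 and 2197, 0.16), the Sprr and Lce epidermal genes (2276 and 2529, 0.15), the type I interferons (946 and 1005, 0.09) and Krtap3-3 to Krtap17-1 (2204 and 2331, 0.08). For the last 2 the counting interval included 0.

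The 2 lowest clusters were runs of Zfp genes on chromosome 7, Zfp553 to Zfp646 with 3531 and 2156 reads (-0.71 [-0.79, -0.63], HA-Macro -0.48) and Zfp84 to Zfp146 with 1568 and 1028 (-0.61 [-0.72, -0.49], HA-Macro -0.66). The Vmn2r29 cluster had 437 and 287 (-0.61). The lipocalins on chromosome 2 had -0.48, Olfr62 to Olfr1328 -0.46, Cyp2d22 to Cyp2d26 -0.45, the clustered protocadherins, adhesion proteins of neurons, -0.45 and Olfr693 to Olfr716 -0.43. Relative to gene number the Zfp553 cluster was at -0.35 and the Prl cluster at 0.60. Of the other low clusters, the protocadherins were at -0.29, Cyp2d22 at -0.27, Zfp84 at -0.15 and Olfr62 at -0.15. Olfr693 was at -0.08, the lipocalins at -0.01 and Vmn2r29 at 0.08, so that little or none of their difference remained.

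Genes that mark the cell types were examined as loci, since a histone ChIP does not measure expression. Fibroblast genes had a body median of -0.49, with 12 of 37 (32.4%) at least 1.5-fold higher in ES cells and 1 (2.70%) in MEFs, near the 26.5% and 2.17% of all bodies, and promoters of 385 and 174 reads (-1.15). Col1a1, the main collagen chain of fibroblasts, held 168 ES and 59 MEF reads over its body (-1.51 [-1.96, -1.07], HA-Macro -1.32). Cnn1, a smooth muscle calponin, held 85 and 34 (-1.32, HA-Macro 0.04), and Thy1, a fibroblast surface marker, 27 and 11 (-1.29 [-2.46, -0.24], HA-Macro -0.41). Prrx1, a mesenchymal transcription factor, held 238 and 147 (-0.70, HA-Macro -0.53). Not all fibroblast genes had this sign: Dcn, the proteoglycan decorin, held 98 and 152 (0.63 [0.26, 1.01]), and Lum held 23 and 33, Fap 174 and 190, and Postn 88 and 96, all with intervals that include 0. Col1a2 held 108 and 83, also with 0 in its interval, and the promoter of Twist1, whose body was too short to count, 17 and 5, but 2 and 5 in HA-Macro, in the opposite direction.

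Pluripotency genes had a body median of -0.0036, with 1 of 22 bodies (4.55%) past 1.5-fold in each direction, beside 26.5% of all bodies higher in ES cells and 2.17% in MEFs, and promoters of 313 and 273 reads (-0.20), but 177 and 251 in HA-Macro (0.50), in the opposite direction. Lin28a, an RNA-binding protein, held 36 ES and 66 MEF reads (0.87 [0.27, 1.50], HA-Macro 0.90), and Klf4, a factor also active in fibroblasts, 31 and 12 (-1.37 [-2.47, -0.37], HA-Macro 0.38). The Pou5f1 promoter held 23 and 29 reads (0.33 [-0.51, 1.19]), that of Sox2 9 and 10, that of Nanog 4 and 3 and that of Zfp42 5 and 8, and the interval of each included 0. Among the other promoters of named genes of the list, Tdgf1 held 2 and 10 (2.32 [0.09, 5.55], HA-Macro 2.22), Klf4 16 and 5 (-1.68 [-3.48, -0.16], HA-Macro -1.74) and Dnmt3b 22 and 9 (-1.29 [-2.59, -0.11], HA-Macro 0.78), with intervals that exclude 0, and Lin28a held 18 and 18 and Otx2 3 and 2. The body of Esrrb held 805 and 801. Otx2 (38 and 52) and Tdgf1 (18 and 24) were next highest after Lin28a, and Nanog (25 and 18) and Dnmt3b (146 and 114) next lowest after Klf4. H2afy2 itself held 251 and 144 reads over its body (-0.80 [-1.11, -0.50], HA-Macro -0.65) and 16 and 4 at its promoter.

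Genes of other lineages were measured in the same way. Neural genes had a body median of 0.14, with 1 of 28 (3.57%) higher in MEFs, near the 2.17% of all bodies, and 0 in ES cells, beside 26.5%. That share depended on gene length and was 3.24% for all genes of 200 to 500 kb. The neural list includes long genes, among them Nrxn3 (1612 kb) and Grin2a (417 kb). Gria2, a glutamate receptor subunit, held 325 and 412 reads (0.34 [0.13, 0.56]) and Nrxn3, a synaptic adhesion protein, 4726 and 5974 (0.34 [0.28, 0.39]), while Nefl held 11 and 29 (1.40 [0.35, 2.55]) but 19 and 16 in HA-Macro (-0.25). Tubb3 held 84 and 58 (-0.53), Nefm 212 and 177, and Grin2a 1545 and 1442 (-0.10 [-0.20, 0.0049], HA-Macro -0.69). Nefl lies inside the annotated span of Nefm, so that its reads are counted in both. Leukocyte genes had a median of -0.01, from Rag2 (31 and 15) to Cd8a (8 and 14, 0.81 [-0.55, 2.27]; HA-Macro 31 and 6, -2.37), with Ptprc, the common leukocyte antigen, at 353 and 461 (0.39 [0.18, 0.59]), Rag1 at 37 and 44 and Lck at 137 and 99.

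Muscle genes had a median of -0.26 and germline genes of -0.08. Among muscle genes, Casq2, which binds calcium in the sarcoplasmic reticulum, held 248 and 312 (0.33 [0.09, 0.58]), Myh1 79 and 89 and Neb 684 and 736, and the lowest were Mybpc3 (184 and 105), Myh4 (103 and 59) and Mybpc2 (207 and 127). In HA-Macro Mybpc3 was at 0.12, in the opposite direction, and Myh4 and Mybpc2 at -0.43 and -0.78. Among germline genes, Tdrd6 held 53 and 77, Zp1 27 and 35 (HA-Macro -0.17) and Zp2 58 and 75 (HA-Macro -0.21), and the lowest were Gdf9 (32 and 12), Piwil1, a Piwi protein of the testis (146 and 68, -1.10 [-1.54, -0.68]) and Acr (36 and 20). Promoters of the germline list summed to 362 and 380 reads (0.07) those of the muscle list to 264 and 251 (-0.07), those of the neural list to 364 and 294 (-0.31) and those of the leukocyte list to 208 and 151 (-0.46), against -0.73 over all protein-coding promoters. In HA-Macro these sums were 0.45, 0.59, 0.60 and -0.05, so that muscle and neural promoters had the opposite sign there.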

How the data were processed

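The authors mapped reads to mm9 with Bowtie (version 1.0 in the submitters' processing notes), allowing 1 mismatch and 1 random location for reads with several, and extended them. The deposited files hold only the chromosome and the first and last base of each mapped read, 400 bp apart in both anti-MacroH2A2 libraries, although the methods give 150 bp. Repeated intervals are 0.464% of each. In these files some duplicated regions hold few reads, unlike in the anti-HA HA-Macro libraries. The Vmn2r29 to Vmn2r36 cluster held 437 ES and 287 MEF reads, against 1596 and 1255 in HA-Macro at 12 h at the same total. How reads with several locations were kept in each set was not tested, and ratios of the 2 sets may not be alike in such regions.

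Intervals on chromosomes 1 to 19 were counted by midpoint (Python 3.11.15, numpy 2.4.6, pandas 2.3.3) and thinned with seed 11. Genes and TSSs came from GENCODE M1 (34653 genes, 21418 protein-coding), with 1 TSS per gene. The 239 tiles highest in the no-Dox library were discarded, as were tiles and features with under 20 reads over both libraries where a median or share is given. Sums have no minimum. With 1 library per cell type no test was possible and no p-value is given. Intervals were computed with scipy 1.17.1.

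Named genes were the 10 highest and 10 lowest bodies and promoters, the 8 highest and 8 lowest family clusters, the 5 longest blocks in each direction, the 3 highest and 3 lowest bodies of 6 lists, and cell type markers, of which 1 gene is not reported here. Clusters allow gaps up to 500 kb. The chromosome 3 stretch is the longest run of tiles whose running median of 5 was at least 0.5 (log2) below the median of the other ES libraries. Members and the 36 gene lists were chosen with earlier results of these data known. Functions were tested on simulated data. X, Y and other sequences were not used here.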

Additional observations from a re-analysis of the deposited data

How the results depend on the processing

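No paired analysis was possible because each cell type has 1 library in which the replicates are combined. A count was taken as moved when it changed by over 1.5 times. A median or TSS peak was taken as moved when it left its 95% interval, which for medians is the binomial interval over features and narrow (0.087 to 0.093 for distal windows), so that small changes count. By these measures, and a fixed tolerance for the correlation, neither leaving out the chromosome 3 stretch nor dropping repeated intervals moved any of 12 summary values. Without the stretch, tiles higher in MEFs went from 969 to 830 and blocks from 19 to 16. With distinct intervals they were 952 and 23. Past 2-fold, 91 tiles were higher in MEFs and 35 in ES cells. Centering by GC decile left 474 tiles higher in ES cells and a gene-free median of 0.064. That median (0.16) was 0.12 centered by chromosome, 0.13 on the tile median, and 0.15 with protein-coding genes only. With no tile discarded the correlation was 0.80. The promoter median (-0.83 over all genes) was -0.59 with 1 read or more in each library, -0.35 with at least 50 reads, -0.89 in full libraries (-0.8875) and -0.89 for protein-coding genes. The TES median (-0.63) was -0.32 with 1 read or more. The distal median (0.087) was 0.078 with 1 read, 0.12 with 50 reads, 0.062 centered on the tile median, 0.082 in full libraries and 0.17 more than 50 kb away. The body median (-0.30) was -0.32 centered or with protein-coding genes only. The TSS peak over flanks (0.77 in ES cells, 0.30 in MEFs) was 0.76 in ES cells by coverage of intervals, and 0.99 and 0.39 with protein-coding genes.

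In the HA-Macro 12 h libraries 3135 tiles were higher in MEFs and 2152 in ES cells, in 186 blocks, with a gene-free median of 0.093, a correlation of 0.60, a body median of -0.33 and TSS peaks of 0.16 and 0.11. The promoter median was 0.29 and the TES median 0.058, opposite in sign. Summed promoter reads gave -0.18 and summed TES reads -0.21, in the same direction as the sums of anti-MacroH2A2. Dhx36 was at -0.41, and the promoters of D10Bwg1379e at 1.00 and Lrp12 at 0.49. The cause was not tested. Depth limits the ratios of single promoters, whose intervals are wide.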

Other observations

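Distal 5 kb windows rich in HA-H3.3, the replacement histone of active genes and regulatory sites, were taken as the 1% of windows more than 10 kb from any TSS with the most HA-H3.3 reads in ES cells (3582 windows, without those highest in the no-Dox library). They held 97456 ES and 82341 MEF reads of anti-MacroH2A2 (-0.24), against 0.08 over all distal windows. Those inside genes (2302) gave -0.42 and those outside genes (1280) gave 0.05. HA-Macro at 12 h gave -0.30 and 0.06. Tile level also followed GC content in the HA-H3.3 libraries, with r of 0.74 at 3 h and 0.66 at 6 h. The class of tiles highest in GC had a ratio of -0.25. These windows were not compared with windows of like GC content. The choice of these windows and of the 1% was made after values of the libraries had been seen.

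A second stretch separated the anti-MacroH2A2 libraries from the HA-Macro libraries. On chromosome 14, from 70500001 to 73300000 (28 tiles), the median tile over the rest of the chromosome was 1.01 in the ES and 1.16 in the MEF anti-MacroH2A2 library. It was 0.517 in HA-Macro ES cells without Dox, 0.513 at 6 h and 0.544 at 12 h, but 0.901 at 3 h. In HA-Macro MEFs it was 0.649, 0.616 and 0.648 at 3, 6 and 12 h. It was 1.00 and 0.873 in the HA-H3.3 libraries at 3 and 6 h. The 3 HA-Macro MEF libraries and 3 of the 4 HA-Macro ES libraries were thus below the others, the ES libraries lower than the MEF libraries. Neither the DNA content of the stretch nor the identity of the cells was tested.

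Relations between tile level and GC content split by cell type in all libraries with an induced or native variant. Pearson r over 23593 tiles was 0.65 to 0.83 in the 6 such ES libraries and 0.56 to 0.59 in the 4 MEF libraries. The gene-densest tiles over gene-free tiles were 1.66 to 3.71 in the former and 1.13 to 1.29 in the latter. These are descriptions of single libraries.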
